A study of Mus musculus with 27 samples.

Results

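The SR proteins, the hnRNP proteins and the CLK kinases were followed here as mRNAs in mouse embryonic stem cells that lose Dicer, the RNase III enzyme that cuts microRNA precursors to their mature form. The members are the protein-coding genes whose symbol begins with Srsf or Hnrnp, together with Clk1, Clk2, Clk3, Clk4, Tra2a, Tra2b, Son, Srrm1 and Srrm2, with symbols assigned to the Ensembl identifiers of the deposited tables through GENCODE M21. The rule gave 40 members of 38123 genes in the tables, namely 11 Srsf genes, 20 Hnrnp genes, 4 Clk genes, 2 Tra2 genes and the trio of Son, Srrm1 and Srrm2. Each of the 40 was above 0 FPKM in all 27 libraries and passed the filter on low values in both fits, so no member was lost.

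SR proteins carry RNA recognition motifs and a tail rich in serine and arginine, bind exonic enhancers and favour the use of nearby splice sites. The hnRNP proteins are abundant RNA-binding proteins that often oppose exon use, package nascent transcripts and take part in export and stability. The CLK kinases phosphorylate SR proteins in the nucleus and release them from nuclear speckles, while Son, Srrm1 and Srrm2 are large speckle and coactivator proteins. Many of these genes control their own mRNA by splicing to forms with a retained intron or a premature stop, and mRNAs of Clk1 and Clk4 with unspliced introns are known to be held in the nucleus of mouse cells. Pluripotent cells are known to depend on several of them, among them Srsf3 in mouse and SON in human cells.

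Polyadenylated RNA was sequenced as directional libraries with paired reads of 100 bases. The cells were the XY embryonic stem cell lines DTCM23/49 carrying a conditional Dicer allele and cultured in serum and leukemia inhibitory factor, with gelatin as the coating. Deletion of the RNase III domain was induced with 800 nM 4-hydroxytamoxifen, and Dicer-deficient colonies were then selected and expanded. The 4 fraction groups were nucleus at day 12, cytoplasm at day 12, nucleus at day 0 and cytoplasm at day 0, and the 5 whole cell groups were days 0, 4, 8, 10 and 12 after loss of function, each with 3 replicates. All groups carry the conditional allele. The day 0 libraries are labelled as taken before induction, ethanol-treated cells were the control of the protocol, and no library after day 0 is labelled as one, so loss of Dicer cannot be told apart from the drug, time in culture or the choice of colonies. The labels name no driver of the recombinase. They call the replicates biological without saying how the cultures relate, and p-values therefore cover only the variation among these libraries, which may be technical.

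Values are FPKM, fragments scaled by transcript length and by library size, and differences are on the scale log2(FPKM + 0.5), which understates changes of low genes. A gene was called where limma with Benjamini-Hochberg adjustment over all genes tested gave an adjusted p under 0.05, over 17124 genes in the 12 fraction libraries and 15991 genes in the 15 whole cell libraries. Errors of means are SD with n = 3, and errors of differences are SE. Because FPKM is a relative measure of each library, a ratio of nucleus to cytoplasm ranks genes against each other and does not give the share of a gene's molecules in a compartment. Relative depth, read from steps between low values with whole cell day 4 replicate 1 set to 1, ran from 0.722 to 3.61 and was 3.05 to 3.61 in the whole cell day 0 libraries. Dicer1 lay at 3.42 to 5.46 FPKM in day 12 nuclei against 7.86 to 16.8 FPKM in day 0 nuclei, and at 2.73 to 3.45 FPKM in day 12 cytoplasm against 21.2 to 23.5 FPKM in day 0 cytoplasm. In whole cells it was 15.01 to 17.9 FPKM at day 0 and 0.876 to 1.90 FPKM on days 4, 8 and 10. The whole cell libraries labelled day 12 had 13.4 to 16.7 FPKM of Dicer1, against their label, and are called by that label throughout. Malat1, a nuclear-retained lncRNA, was 80.4 to 415 FPKM in the 6 nuclear libraries and 15.02 to 19.1 FPKM in the 6 cytoplasmic ones. Pluripotency markers were present in every group, with summed levels of 16 genes of 2888 FPKM or more in each whole cell library.

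A few libraries stood apart. Relative to the other 2 libraries of its group, nucleus day 0 replicate 3 held transcripts of 6531 bases or more at a median of -0.79 and those of 1247 bases or less at 0.64 on the log2 scale, and nucleus day 12 replicate 1 held them at 0.41 and -0.72. Whole cell day 4 replicate 3 held them at -0.80 and 0.60. Fraction results are therefore also given without the 2 nuclear libraries, a setting chosen after the data were seen. The whole cell day 0 libraries had 744 to 891 FPKM of Gapdh, against 31.5 to 81.6 FPKM in all other libraries, so each whole cell comparison with day 0 carries that contrast, and days 8 and 10 were also compared with day 4.

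To show the retained introns that annotation places in some members with high nuclear ratios, the ends of 1 intron each are printed for Clk1, Clk4, Srsf5 and Hnrnpdl, with Hnrnpk as a member of low nuclear ratio. Each is an intron of a coding transcript that lies inside exons of the most transcripts annotated as retained intron in GENCODE M21 on GRCm38. The coding transcripts used for Srsf1, Srsf11, Srsf12, Srrm2 and Hnrnph1 had 0 introns wholly inside an exon of such transcripts. That count covers 1 coding transcript per gene and does not mean that no retention is annotated. Srsf11, Srrm2 and Srsf1 had 11, 4 and 2 transcripts annotated as retained intron, and Srsf12 and Hnrnph1 had 0. The day 0 log2 ratios of nucleus to cytoplasm of Srsf1, Srsf11, Srsf12, Srrm2 and Hnrnph1 were 1.39, 1.22, 1.19, 1.05 and 1.002, above the 0.97 of Srsf5. Hnrnpk had 4 such introns, at a day 0 ratio of -1.06. The lines give 3 exon bases and 20 intron bases at each end, 5′ to 3′ on the transcribed strand, with the terminal dinucleotides of the intron in capitals.
Clk1 intron 3, 5′ end: gggGTatgagtgccttttaaacg
Clk1 intron 3, 3′ end: cgcccacttgacgtgtccAGaag
Clk4 intron 7, 5′ end: attGTaagtattcatgaacacac
Clk4 intron 7, 3′ end: gttttctgtttccgttgtAGttt
Srsf5 intron 5, 5′ end: cagGTttgttgaaatacagtttt
Srsf5 intron 5, 3′ end: cataattgtcttgtgttaAGgat
Hnrnpdl intron 6, 5′ end: gcgGTaagaacacttaactcaat
Hnrnpdl intron 6, 3′ end: aactcatatcctttccacAGgtc
Hnrnpk intron 13, 5′ end: atgGTaagtttcttctttttgaa
Hnrnpk intron 13, 3′ end: ctgctcattatttaaatcAGact
The Clk1 intron spans chr1:58420212-58421082 on the minus strand, and the Clk4 intron chr11:51275579-51275769 on the plus strand. Those of Srsf5 and Hnrnpdl lie at chr12:80947866-80949094 on the plus strand and chr5:100036196-100036480 on the minus strand, and that of Hnrnpk at chr13:58393775-58393852 on the minus strand. All 5 begin with GT and end with AG, and they measure 871, 191, 1229, 285 and 78 bases in the order printed. The deposited values are summed over the isoforms of a gene, so reads in these introns were not measured here.

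All Clk mRNAs and most Hnrnp mRNAs lay on opposite sides of the compartments. At day 12, 8 members were higher in the nucleus and 19 lower, and 13 were not called, against 18.4% of all genes called higher and 15.7% called lower. At day 0, 16 were higher, 17 lower and 7 not called, against 25.3% called higher and 16.4% called lower. All 4 Clk mRNAs were higher in the nucleus on both days, and of the 20 Hnrnp mRNAs 16 were lower at day 12 and 14 at day 0. The median log2 ratio at day 12 was 1.23 over the Clk genes, 0.08 over the Srsf genes and -0.80 over the Hnrnp genes, beside 0.06 over all genes tested. At day 0 these medians were 1.33, 0.55 and -0.80, beside 0.12. Without 2 nuclear libraries that stood apart, the Srsf median was 0.01 at day 12 and 0.62 at day 0. Of the members, 6 were called higher on both days (Clk1, Clk2, Clk3, Clk4, Srrm2 and Srsf11), against 13.6% of all genes, and 15 lower on both, against 10.5%, and 0 changed sides. Without the 2 libraries, 13 were higher on both days, against 21.8%, with Hnrnph1, Hnrnph3, Son, Srrm1, Srsf6, Srsf7 and Tra2a added, and 17 were lower on both, against 16.7%.

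**Figure D1:**
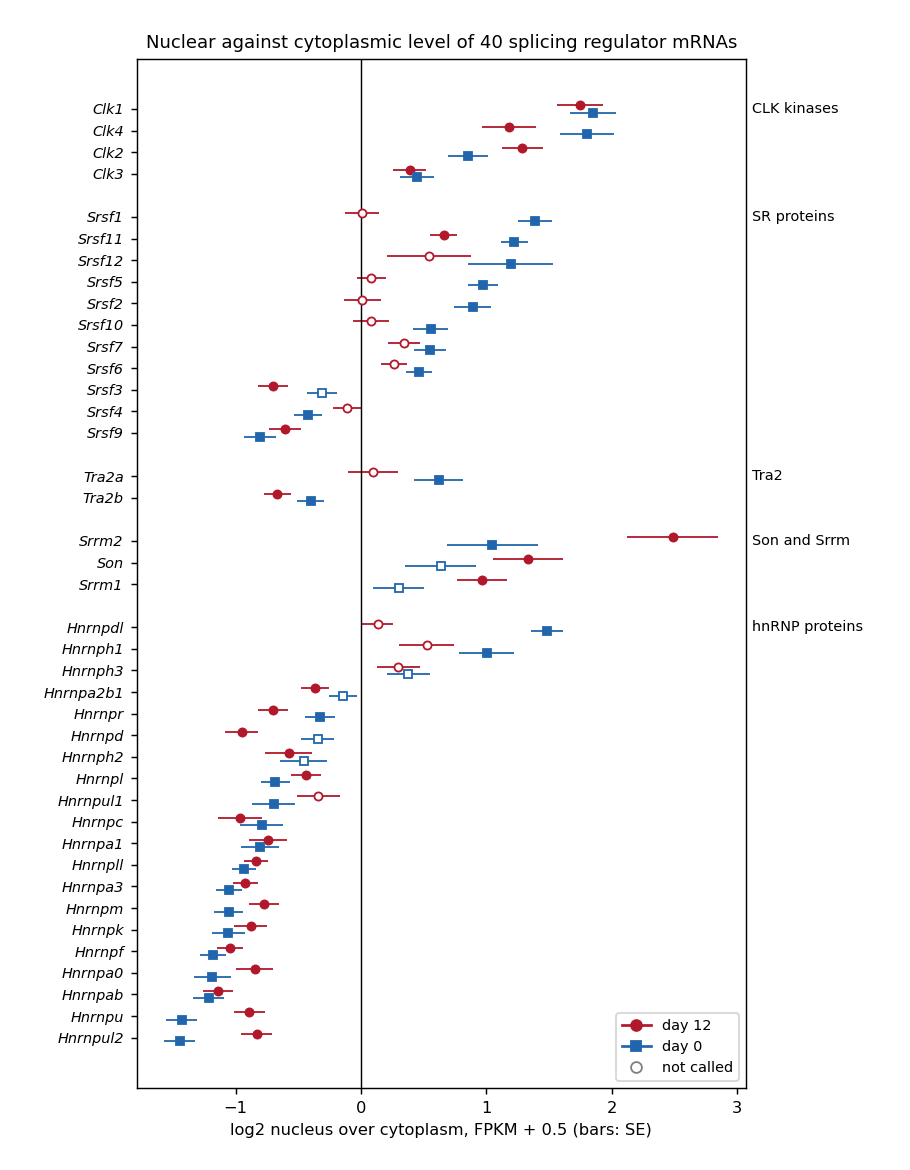
Log2 ratio of nuclear to cytoplasmic FPKM + 0.5 for each of the 40 members at day 12 (circles) and day 0 (squares), grouped by family, with the SE from limma as bars and open symbols for members that were not called. Clk genes lie right of 0 on both days, most Hnrnp genes lie left of 0, and Srsf1, Hnrnpdl, Srsf5 and Srsf2 lie near 0 at day 12 and between 0.89 and 1.48 at day 0.

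Scaling moved the balance over all genes. At day 12, 54.1% of the called genes were higher in the nucleus as deposited, 50.2% after median-of-ratios scaling and 39.6% after quantile normalization, with Hnrnp medians of -0.80, -0.84 and -0.66. At day 0, 60.7%, 52.4% and 39.4% were higher under the same settings, and the median over all genes was 0.12, 0.03 and -0.10. The Clk median was 1.33, 1.23 and 1.24, the Srsf median 0.55, 0.46 and 0.68 and the Hnrnp median -0.80, -0.90 and -0.65 in that order, so these family medians kept their sign while that over all genes did not. Without the 2 nuclear libraries, 13 members were higher and 20 lower at day 12, against 33.2% and 26.8% of all genes (60% in all), and 19 were higher and 18 lower at day 0, against 37.1% and 26.9% (64% in all).

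The Clk kinases showed the nuclear pattern in every library. Clk1 had 45.9, 36.1 and 38.1 FPKM in day 12 nuclei and 11.9, 11.6 and 11.1 FPKM in day 12 cytoplasm. The day 0 values were 44.8, 54.3 and 29.2 FPKM in nuclei and 11.1, 11.1 and 11.2 FPKM in cytoplasm. The 6 nuclear libraries lay above all 6 cytoplasmic ones, with a log2 ratio of 1.75 ± 0.19, adjusted p = 9.77e-05 at day 12 and 1.85 ± 0.19, adjusted p = 4.13e-05 at day 0 by limma with Benjamini-Hochberg adjustment, as throughout. Clk4, the closest relative of Clk1, had 20.3, 12.8 and 12.5 FPKM in day 12 nuclei and 6.24, 6.66 and 5.95 FPKM in day 12 cytoplasm. Before induction Clk4 had 17.9, 21.6 and 12.2 FPKM in nuclei and 4.16, 4.58 and 4.63 FPKM in cytoplasm. Its groups did not overlap either, and its ratio was 1.18 ± 0.21, adjusted p = 0.00195 at day 12 and 1.81 ± 0.21, adjusted p = 0.000107 at day 0. The nuclear values of both genes at day 0 were lowest in replicate 3, 1 of the 2 libraries that stood apart.

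Clk2, which also phosphorylates SR proteins, had 19.9, 13.6 and 12.8 FPKM in day 12 nuclei against 5.68, 5.43 and 6.71 FPKM in day 12 cytoplasm. In day 0 cells it had 19.98, 19.7 and 24.7 FPKM in nuclei and 11.6, 11.1 and 12.1 FPKM in cytoplasm. Its ratio was 1.29 ± 0.16, adjusted p = 0.000236 at day 12 and 0.85 ± 0.16, adjusted p = 0.00193 at day 0, and the cytoplasm was lower at day 12 than at day 0, at -0.91 ± 0.16, adjusted p = 0.00168. The nuclear change of Clk2 was -0.48 ± 0.16, adjusted p = 0.0396, a call lost under 9 of 16 alternatives, both scalings and 4 of the 6 single libraries left out among them (adjusted p 0.0574 to 0.14). Clk3 was the flattest of the family, with 8.50, 6.76 and 6.601 FPKM in day 12 nuclei and 5.91, 4.77 and 5.64 FPKM in day 12 cytoplasm. Before induction Clk3 had 10.8, 9.92 and 13.0 FPKM in nuclei and 8.17, 8.38 and 7.63 FPKM in cytoplasm. The compartments of Clk3 did not overlap within a day, at 0.39 ± 0.14, adjusted p = 0.0472 for day 12 and 0.45 ± 0.14, adjusted p = 0.0216 for day 0. The Clk3 call was lost on both days under median-of-ratios scaling and under quantile normalization. It was also lost at day 12 when any 1 of the 6 day 12 libraries was left out (adjusted p 0.0557 to 0.171), and at day 0 without cytoplasm day 0 replicate 1 or 3 (adjusted p = 0.0534 and 0.0754).

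**Figure D2:**
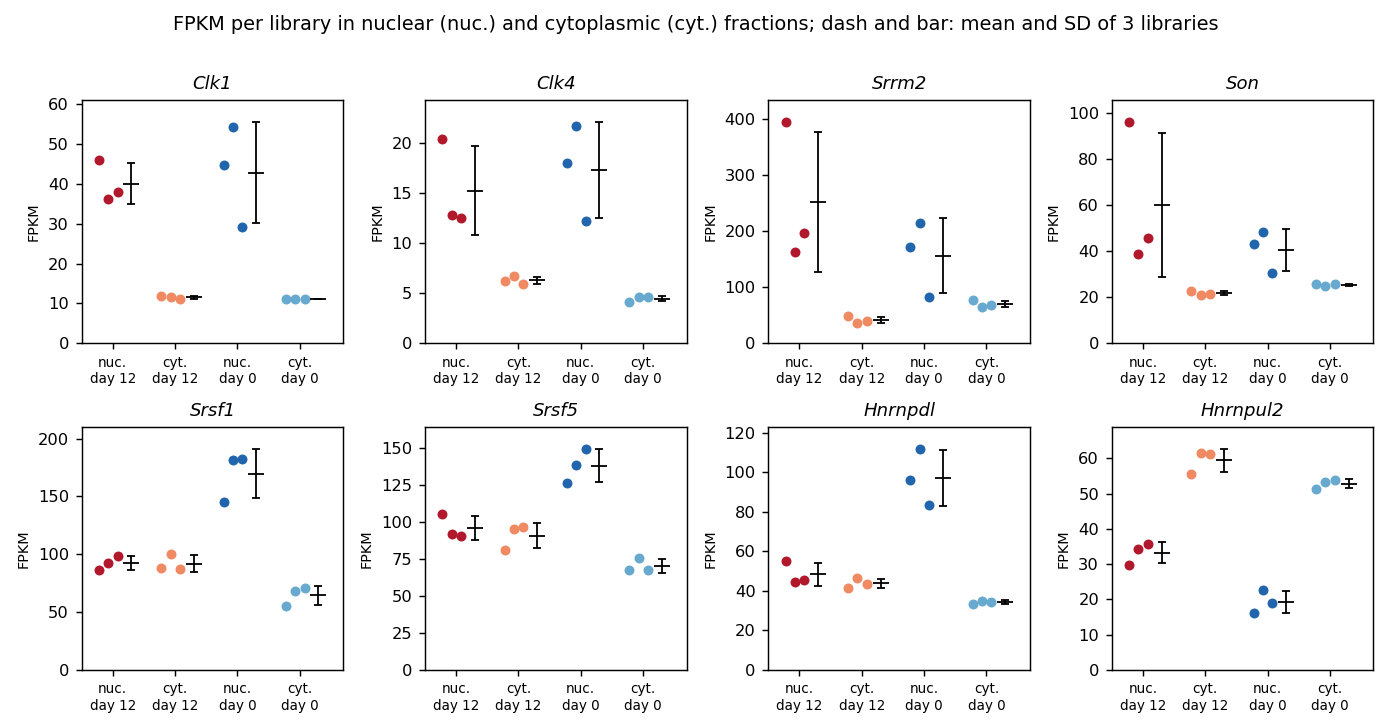
FPKM in each library of the 4 fraction groups for 8 members, with the mean and SD of the 3 libraries beside the points. Clk1 and Clk4 keep a gap between nuclei and cytoplasm on both days, the nuclear and cytoplasmic values of Srsf1, Srsf5 and Hnrnpdl meet at day 12, Srrm2 and Son have 1 high nuclear library at day 12, and Hnrnpul2 is lower in nuclei.

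The SR genes were called higher in nuclei mostly at day 0. At day 12, 1 of 11 Srsf genes was higher in the nucleus and 2 lower, and at day 0, 8 were higher and 2 lower. Of all genes, 18.4% were higher and 15.7% lower at day 12, and 25.3% and 16.4% at day 0. Without the 2 nuclear libraries 3 Srsf genes were higher at day 12 and 8 at day 0, against 33.2% and 37.1% of all genes. With quantile normalization 2 and 7 were higher, where 5366 and 6779 of all genes were called, 39.6% and 39.4% of them higher. No test compared the Srsf counts between the days. Srsf1, among the first SR proteins described, had the highest nuclear ratio of the SR genes at day 0. Srsf1 had 86.5, 92.3 and 98.7 FPKM in day 12 nuclei and 88.1, 101 and 86.9 FPKM in day 12 cytoplasm. Before induction it had 145, 182 and 183 FPKM in nuclei and 55.3, 68.0 and 70.7 FPKM in cytoplasm. Its compartments overlapped at day 12, with a log2 ratio of 0.01 ± 0.14, adjusted p = 0.968, and lay far apart at day 0, with 1.39 ± 0.14, adjusted p = 3.38e-05. Srsf11, an SR-related protein, had 46.2, 41.4 and 39.9 FPKM in day 12 nuclei and 28.1, 25.1 and 26.9 FPKM in day 12 cytoplasm. Its day 0 levels stood at 62.6, 79.7 and 76.2 FPKM in nuclei and 30.6, 30.3 and 31.4 FPKM in cytoplasm. It was called higher in the nucleus on both days, at 0.66 ± 0.11, adjusted p = 0.00109 for day 12 and 1.22 ± 0.11, adjusted p = 1.93e-05 for day 0. Srsf12, the least abundant member, had 2.41, 0.634 and 1.16 FPKM in day 12 nuclei and 0.835, 0.644 and 0.662 FPKM in day 12 cytoplasm. For day 0, Srsf12 had 3.49, 3.81 and 1.64 FPKM in nuclei and 1.097, 0.746 and 1.05 FPKM in cytoplasm. Its compartments overlapped at day 12, where the ratio was 0.54 ± 0.34, adjusted p = 0.243, and did not at day 0, at 1.19 ± 0.34, adjusted p = 0.0158, a call lost without nucleus day 0 replicate 1 or 2 or cytoplasm day 0 replicate 2 (adjusted p = 0.055, 0.056 and 0.0591), and under quantile normalization.

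Srsf5 also met its cytoplasmic level at day 12. Srsf5 had 106, 92.2 and 90.4 FPKM in day 12 nuclei and 80.8, 95.1 and 96.4 FPKM in day 12 cytoplasm. Its day 0 values were 127, 138 and 149.6 FPKM in nuclei and 67.2, 75.8 and 67.6 FPKM in cytoplasm. The ratio was 0.08 ± 0.12, adjusted p = 0.627 at day 12, with overlapping compartments, and 0.97 ± 0.12, adjusted p = 0.000119 at day 0, with all nuclear libraries above all cytoplasmic ones. Srsf2, a protein widely used to mark speckles, averaged 158 ± 30.1 FPKM in nuclei and 156 ± 17.6 FPKM in cytoplasm at day 12, and 256 ± 12.9 FPKM and 138 ± 7.65 FPKM in nuclei and cytoplasm at day 0. Its ratio was 0.01 at day 12 and 0.89 ± 0.15, adjusted p = 0.000815 at day 0. Srsf10, Srsf7 and Srsf6 had ratios of 0.08, 0.34 and 0.26 at day 12, where none of the 3 was called, and were higher at day 0 with 0.55, 0.55 and 0.46. Without the 2 nuclear libraries Srsf7 and Srsf6 were also called at day 12, at 0.32 ± 0.11, adjusted p = 0.0313 and 0.23 ± 0.08, adjusted p = 0.0291.

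On the cytoplasmic side of the SR family stood Srsf9, Srsf4 and Srsf3. Srsf9 had 17.2, 19.4 and 19.6 FPKM in day 12 nuclei and 25.3, 32.6 and 28.7 FPKM in day 12 cytoplasm. Corresponding day 0 values were 21.2, 19.5 and 22.2 FPKM in nuclei and 33.4, 43.1 and 35.2 FPKM in cytoplasm. No nuclear library of Srsf9 reached a cytoplasmic one, at -0.61 ± 0.13, adjusted p = 0.00426 for day 12 and -0.81 ± 0.13, adjusted p = 0.000594 for day 0. Srsf4, one of the larger SR proteins, had 13.6, 14.6 and 12.7 FPKM in day 12 nuclei and 14.4, 14.7 and 15.2 FPKM in day 12 cytoplasm. At day 0 it had 11.6, 11.7 and 15.3 FPKM in nuclei and 18.1, 16.6 and 17.3 FPKM in cytoplasm. It was not called at day 12, at -0.11 ± 0.11, adjusted p = 0.479, and lower in the nucleus at day 0, at -0.42 ± 0.11, adjusted p = 0.0125. Srsf3, the smallest family member and an export adaptor, was lower in the nucleus at day 12, at -0.70 ± 0.12, adjusted p = 0.00134, with -0.31 and an adjusted p of 0.06 at day 0.

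The Tra2 pair, sequence-specific activators related to the SR proteins, was called on opposite sides at day 0. Tra2a had 73.7, 123 and 108 FPKM in day 12 nuclei and 89.9, 102 and 87.7 FPKM in day 12 cytoplasm. The day 0 values were 115, 119 and 169 FPKM in nuclei and 80.1, 87.7 and 90.4 FPKM in cytoplasm. The day 12 nuclei of Tra2a ranged across the cytoplasmic values, at 0.09 ± 0.20, adjusted p = 0.749, and its day 0 nuclei were higher, at 0.62 ± 0.20, adjusted p = 0.0283, a call lost without nucleus day 0 replicate 3 (0.44, adjusted p = 0.0734), without any 1 cytoplasmic library of day 0 (adjusted p 0.0578 to 0.0894) and under median-of-ratios scaling. Without the 2 nuclear libraries Tra2a was higher at both days, at 0.31 ± 0.09 for day 12 and 0.44 ± 0.09 for day 0. Tra2b had 29.6, 29.0 and 27.3 FPKM in day 12 nuclei and 45.7, 48.4 and 43.5 FPKM in day 12 cytoplasm. At day 0 Tra2b had 33.5, 36.9 and 39.9 FPKM in nuclei and 42.6, 50.3 and 53.5 FPKM in cytoplasm. Tra2b was lower in nuclei on both days without overlap, at -0.67 ± 0.11, adjusted p = 0.00101 for day 12 and -0.40 ± 0.11, adjusted p = 0.0129 for day 0. Its day 0 call was lost without nucleus day 0 replicate 1 or cytoplasm day 0 replicate 2 or 3 (adjusted p 0.0506 to 0.0617). The difference between the genes themselves was not tested.

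The mRNAs of the speckle proteins were high in nuclei, with wide spread between nuclear libraries. Srrm2 had 394, 163 and 197 FPKM in day 12 nuclei and 48.1, 36.8 and 39.5 FPKM in day 12 cytoplasm. Its day 0 levels were 172, 215 and 82.8 FPKM in nuclei and 76.5, 65.4 and 68.4 FPKM in cytoplasm. The highest nuclear value at day 12 came from replicate 1 and the lowest at day 0 from replicate 3, and Srrm2 has a coding transcript of 8864 bases, among the long ones. Srrm2 was called higher on both days, at 2.49 ± 0.36, adjusted p = 0.00056 for day 12 and 1.05 ± 0.36, adjusted p = 0.0394 for day 0, and without the 2 libraries at 2.11 ± 0.14 and 1.45 ± 0.14. Its day 0 call was lost under 9 of 16 alternatives, among them both scalings and leaving out nucleus day 0 replicate 1 or 2 or any 1 cytoplasmic library of day 0 (adjusted p 0.0731 to 0.133). Son, the scaffold of speckles, had 96.1, 38.7 and 45.9 FPKM in day 12 nuclei and 22.7, 21.02 and 21.6 FPKM in day 12 cytoplasm. At day 0 Son had 43.1, 48.4 and 30.6 FPKM in nuclei and 25.8, 25.1 and 25.8 FPKM in cytoplasm. All nuclear libraries of Son exceeded the cytoplasmic ones, with 1.33 ± 0.28, adjusted p = 0.00455 at day 12 and 0.64 ± 0.28, adjusted p = 0.0928 at day 0, the second called without the 2 libraries, at 0.83 ± 0.08, adjusted p = 1.89e-05. The day 12 ratio of Son without the 2 libraries was lower, at 0.94 ± 0.08, adjusted p = 1.22e-05. Srrm1, a splicing coactivator, had 124, 67.5 and 71.3 FPKM in day 12 nuclei and 45.9, 41.5 and 41.4 FPKM in day 12 cytoplasm. At day 0 Srrm1 had 76.0, 82.0 and 64.3 FPKM in nuclei and 62.7, 56.4 and 60.4 FPKM in cytoplasm. Its ratio was 0.96 ± 0.20, adjusted p = 0.0041 at day 12 and 0.30 ± 0.20, adjusted p = 0.253 at day 0, the second again called without the 2 libraries, at 0.40 ± 0.07, adjusted p = 0.000784. In that setting the day 12 ratio of Srrm1 was 0.69 ± 0.07, adjusted p = 3.3e-05.

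Most hnRNP mRNAs were lower in the nucleus, with Hnrnpdl and Hnrnph1 as the 2 called exceptions at day 0. Hnrnpdl had 55.0, 44.4 and 45.5 FPKM in day 12 nuclei and 41.6, 46.3 and 43.5 FPKM in day 12 cytoplasm. Day 0 cells had 96.1, 112 and 83.5 FPKM in nuclei and 33.1, 34.9 and 34.5 FPKM in cytoplasm. Hnrnpdl, a close relative of Hnrnpd, had overlapping compartments at day 12, at 0.13 ± 0.12, adjusted p = 0.442, and the highest day 0 ratio of the family, at 1.48 ± 0.12, adjusted p = 1.45e-05. Hnrnph1, which binds G-rich elements, had 151, 113 and 116 FPKM in day 12 nuclei and 86.9, 92.4 and 82.2 FPKM in day 12 cytoplasm. For day 0, Hnrnph1 had 118, 152 and 74.4 FPKM in nuclei and 51.9, 55.6 and 56.9 FPKM in cytoplasm. Its nuclear libraries were above its cytoplasmic ones within each day, with 0.52 ± 0.22, adjusted p = 0.0901 at day 12, where it was called without the 2 nuclear libraries, at 0.39 ± 0.10, adjusted p = 0.0079, and 1.002 ± 0.22, adjusted p = 0.00427 at day 0. Hnrnph3, of the same subfamily, had 13.0, 18.9 and 20.1 FPKM in day 12 nuclei and 12.8, 14.0 and 14.6 FPKM in day 12 cytoplasm. Before induction Hnrnph3 had 21.7, 27.9 and 31.5 FPKM in nuclei and 20.5, 20.2 and 20.6 FPKM in cytoplasm. It was not called, at 0.30 ± 0.17, adjusted p = 0.199 for day 12 and 0.38 ± 0.17, adjusted p = 0.0946 for day 0. Without the 2 libraries Hnrnph3 was called higher in nuclei on both days, at 0.49 ± 0.10, adjusted p = 0.00214 and 0.26 ± 0.10, adjusted p = 0.0399.

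At the cytoplasmic end stood Hnrnpul2 and Hnrnpu, large nuclear matrix proteins with an SAP domain. Hnrnpul2 had 29.8, 34.4 and 35.6 FPKM in day 12 nuclei and 55.6, 61.5 and 61.2 FPKM in day 12 cytoplasm. The day 0 values were 16.1, 22.5 and 19.1 FPKM in nuclei and 51.3, 53.2 and 53.8 FPKM in cytoplasm. Hnrnpu had 66.7, 68.2 and 66.4 FPKM in day 12 nuclei and 121, 128 and 126 FPKM in day 12 cytoplasm. For day 0, Hnrnpu had 37.4, 51.9 and 38.6 FPKM in nuclei and 113, 115 and 116 FPKM in cytoplasm. Every nuclear library of both genes was below every cytoplasmic one. Their ratios were -0.83 ± 0.12, adjusted p = 0.000624 and -0.89 ± 0.12, adjusted p = 0.000373 at day 12, and -1.45 ± 0.12, adjusted p = 1.62e-05 and -1.43 ± 0.12, adjusted p = 1.56e-05 at day 0. Hnrnpa1, the most abundant member, averaged 313 ± 36.3 FPKM in nuclei and 523 ± 20.6 FPKM in cytoplasm at day 12, and 456 ± 43.3 FPKM in nuclei and 795 ± 54.2 FPKM in cytoplasm at day 0. The other Hnrnp genes called lower on both days were Hnrnpa0, Hnrnpa3, Hnrnpab, Hnrnpc, Hnrnpf, Hnrnpk, Hnrnpl, Hnrnpll, Hnrnpm and Hnrnpr, with day 12 ratios of -1.14 to -0.44 and day 0 ratios of -1.21 to -0.33. The day 0 call of Hnrnpr was lost under 11 of 16 alternatives, among them any 1 cytoplasmic library of day 0 or nucleus day 0 replicate 1 or 3 left out (adjusted p 0.0555 to 0.19), and it was -0.23 ± 0.09, adjusted p = 0.0528 without the 2 nuclear libraries. That of Hnrnpl at day 12 was lost with quantile normalization and without nucleus day 12 replicate 3 or cytoplasm day 12 replicate 2 or 3 (adjusted p 0.0506 to 0.0611). Hnrnpa2b1, Hnrnpd and Hnrnph2 were called lower at day 12 and not at day 0, and Hnrnpul1 at day 0 and not at day 12. Without the 2 libraries Hnrnpd was also called at day 0, at -0.20 ± 0.08, adjusted p = 0.0497, and Hnrnpul1 at day 12, at -0.32 ± 0.06, adjusted p = 0.000991. The Hnrnph2 call was lost when any 1 of the 6 day 12 libraries was left out (adjusted p 0.0571 to 0.121), and that of Hnrnpa2b1 without replicate 2 or 3 of either compartment of day 12 (adjusted p 0.0597 to 0.119).

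The ratio of nucleus to cytoplasm was itself tested for a change between the days. By that test 3 members were lower at day 12 (Srsf1, Hnrnpdl and Srsf5) and 0 higher, against 1.05% of all genes lower and 0.274% higher. At an unadjusted p under 0.05 there were 8 lower and 4 higher members. The share of all genes at that unadjusted threshold is not given, so these counts cannot be set beside it. The log2 ratio of Srsf1 changed by -1.38 ± 0.19, adjusted p = 0.0108, that of Hnrnpdl by -1.35 ± 0.18, adjusted p = 0.0101 and that of Srsf5 by -0.89 ± 0.17, adjusted p = 0.032. Hnrnpdl kept its call under all 21 alternatives, Srsf1 lost it without cytoplasm day 12 replicate 1 (-1.40, adjusted p = 0.0516), and Srsf5 lost it under 12 of the 21. Without the 2 nuclear libraries that stood apart, 7 members were higher and 13 lower, against 17.1% and 21.6% of all genes. The higher ones were Clk2, Hnrnpa0, Hnrnpu, Hnrnpul2, Srrm1, Srrm2 and Srsf4. Lower were Clk1, Clk4, Hnrnpd, Hnrnpdl, Hnrnph1, Hnrnpr, Srsf1, Srsf2, Srsf3, Srsf5, Srsf10, Srsf11 and Srsf12. The Clk genes lay on both sides, with Clk2 at 0.34 ± 0.12, adjusted p = 0.0482 and Clk1 and Clk4 at -0.45 and -1.07. Scaling as deposited, by median of ratios and by quantiles left 20.7%, 31.6% and 40.9% of all called genes higher, with 0 higher with 3 lower, 0 higher with 3 lower and 0 higher with 2 lower among the members in the same order.

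Behind the change of Srsf1 stood both compartments. In nuclei, 92.5 ± 6.09 FPKM at day 12 compared with 169.8 ± 21.5 FPKM at day 0 (SD, n = 3 each), a log2 change of -0.87 ± 0.14, adjusted p = 0.000859, and in cytoplasm 91.9 ± 7.60 FPKM compared with 64.7 ± 8.23 FPKM, at 0.51 ± 0.14, adjusted p = 0.0148. Hnrnpdl was lower in nuclei at day 12, at -0.998 ± 0.12, adjusted p = 0.00024, and its cytoplasmic change was 0.35 ± 0.12, adjusted p = 0.051. For Srsf5 the nuclear change was -0.52 ± 0.12, adjusted p = 0.00626 and the cytoplasmic one 0.37 ± 0.12, adjusted p = 0.0346. These comparisons share libraries with the test of the ratio. Over all members, nuclei at day 12 had 4 higher and 11 lower than at day 0, against 15.1% and 21.6% of all genes and 36.7% called in all, and 7 higher and 19 lower without the 2 libraries, against 24.7% and 31.8%. The 4 higher were Hnrnpm, Hnrnpu, Hnrnpul1 and Hnrnpul2, with log2 changes of 0.39, 0.66, 0.48 and 0.78. The Hnrnpul1 call was lost under 7 of 16 alternatives, among them any 1 nuclear library of day 12 left out (adjusted p 0.067 to 0.105), and the change was 0.26 ± 0.06 without the 2 libraries. The Hnrnpm call was lost without nucleus day 0 replicate 1 or nucleus day 12 replicate 2 or 3 (adjusted p 0.0509 to 0.0892). In cytoplasm 5 members were higher (Hnrnpd, Hnrnph1, Srsf1, Srsf5 and Srsf6) and 4 lower (Clk2, Clk3, Hnrnpa1 and Hnrnph3), against 16% and 16.6%. These 9 became 3 to 5 when 1 cytoplasmic library was left out. Hnrnpd, Hnrnph1 and Hnrnph3 lost the call without any 1 of the 6 (adjusted p 0.0579 to 0.132, adjusted p 0.0757 to 0.114 and adjusted p 0.0541 to 0.0937), Srsf5 without any but day 12 replicate 1 (adjusted p 0.0502 to 0.126), and Srsf6 without day 0 replicate 1 or any 1 of day 12 (adjusted p 0.0503 to 0.0821). Srsf1 lost it without day 0 replicate 1 or day 12 replicate 2 (adjusted p 0.0664 to 0.069), Hnrnpa1 without day 0 replicate 2 (adjusted p = 0.0506) and Clk3 without day 12 replicate 2 (adjusted p = 0.0554). The Clk2 call was lost under none of the 15 alternatives run. With scaling as deposited, by median of ratios and by quantiles, the members counted 4 higher with 11 lower, 4 higher with 8 lower and 3 higher with 5 lower in nuclei. Over all genes 6281, 6060 and 6155 were called in nuclei in that order, 41.2%, 48.4% and 48.8% of them higher. In cytoplasm the members counted 5 higher with 4 lower, 6 higher with 4 lower and 1 higher with 4 lower. There 5574, 5629 and 5151 of all genes were called, 49.1%, 50.2% and 47.4% of them higher.

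Markers of some cell types moved with the day, most plainly in cytoplasm. In cytoplasm the summed level of 9 fibroblast markers was 534 to 566 FPKM at day 12 against 142 to 154 FPKM at day 0, with 3 of them under 0.5 FPKM in every library of either day. Cytoplasmic sums of 10 trophoblast markers were 400.1 to 441 FPKM against 225 to 238 FPKM, with 1 and 3 of them under 0.5 FPKM throughout, and those of 16 pluripotency markers 2463 to 2588 FPKM against 3711 to 3752 FPKM. The days did not overlap in cytoplasm for the fibroblast, trophoblast and pluripotency lists. In nuclei they did, with 463 to 509 FPKM against 297 to 589 FPKM for fibroblast markers, 664 to 809.6 FPKM against 447 to 730.4 FPKM for trophoblast markers and 1628 to 3533 FPKM against 2482 to 5573 FPKM for pluripotency markers. Endoderm markers, 11 in all, summed to 239 to 274 FPKM in day 12 nuclei against 109.6 to 164 FPKM in day 0 nuclei, without overlap. On each day 4 of the 11 were under 0.5 FPKM in every nuclear library. The part of these markers in the changes of the members between the days was not tested, and in bulk RNA fewer cells of a type and less RNA per cell cannot be told apart.

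Transcript models were compared because the rule did not use them. In GENCODE M21, 31 of the 40 members (77.5%) had at least 1 transcript annotated as retained intron, beside 56.4% of 13395 protein-coding genes tested, and 28 (70%) had one annotated for nonsense-mediated decay, beside 27.4%. Annotation of a retained intron was present for 13 of the 16 members higher in the nucleus at day 0, for 12 of the 17 lower and for 6 of the 7 not called. Hnrnpk, a poly(C)-binding protein, had 13 retained intron transcripts, the most of any member, and a day 0 ratio of -1.06 ± 0.13, adjusted p = 0.000131. Over all protein-coding genes the median day 0 log2 ratio was 0.05 for genes with no such transcript, 0.07 with 1 to 2, 0.10 with 3 to 5 and 0.24 with 6 or more. The members had a median of 9 annotated transcripts, beside 5 over those genes, and the part of that number in these shares was not tested.

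Other genes of splicing gave a frame for these values. Of 69 core spliceosome genes 4 were higher in the nucleus and 33 lower at day 12, with a median of -0.42, and 4 were higher and 36 lower at day 0, with a median of -0.40. At day 0, among 34 SR-related regulators and kinases outside the rule 10 were higher and 7 lower, and among 53 other splicing regulators 17 were higher and 15 lower. Of 15 genes of nonsense-mediated decay and the exon junction 1 was higher and 6 lower, of 10 nuclear lncRNAs 9 were higher and 0 lower, and of 35 ribosomal protein genes 0 were called. Rsrp1, an arginine- and serine-rich protein, had 188 ± 14.2 FPKM in nuclei, against 21.4 ± 1.18 FPKM in cytoplasm, a difference of 3.10 ± 0.11 with an adjusted p of 1.77e-07. Ccnl2, a cyclin of speckles, had 62.7 ± 11.6 FPKM in nuclei, against 7.43 ± 0.372 FPKM in cytoplasm, a difference of 2.98 ± 0.19 with an adjusted p of 2.47e-06. Both exceeded the 1.85 of Clk1, though no test compared them. Ptbp1, the polypyrimidine tract binding protein, had 50.1 ± 10.1 FPKM in nuclei, against 101 ± 3.39 FPKM in cytoplasm, a difference of -1.03 ± 0.14 with an adjusted p of 0.000205. Tia1 and Celf4, both RNA-binding regulators, were higher at 1.52 and 1.62, Alyref, Tnpo3 and Pcbp1 lower at -1.13, -0.93 and -1.04. Snrnp48 and Prpf39 were the core genes highest in nuclei, at 1.68 and 0.96, and Aqr and Eftud2 the lowest, at -1.23 and -1.06. Upf3b was higher at 0.96, and Magoh and Smg8 lower at -1.15 and -0.998.

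In whole cells no member reached an absolute log2 change of 1 against day 0, and 81.9% of all genes stayed under it too. Against day 0, 1 member was higher and 3 lower at day 4 (4.88% and 1.82% of all genes, 6.7% in all), 4 and 6 at day 8 (20.2% and 9.62%), 5 and 7 at day 10 (27.7% and 16%), and 4 and 7 in the libraries labelled day 12 (10.2% and 3.34%). All 4 comparisons share the day 0 libraries. On none of the days were 18 of 40 members called, against 48.4% of all genes, among them Clk4, Son, Srrm2, Srsf3, Srsf7, Srsf11 and Tra2a. An F-test over the 5 days called 24 members, against 54.2% of all genes, and 15 without the libraries labelled day 12. The share of all genes without those libraries is not given, so the 24 and the 15 cannot be set side by side. Against day 4, a comparison added after the data were seen, 3 were higher and 3 lower at day 8 (13.2% and 6.72%) and 4 and 4 at day 10 (23.3% and 14.2%).

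**Figure D3:**
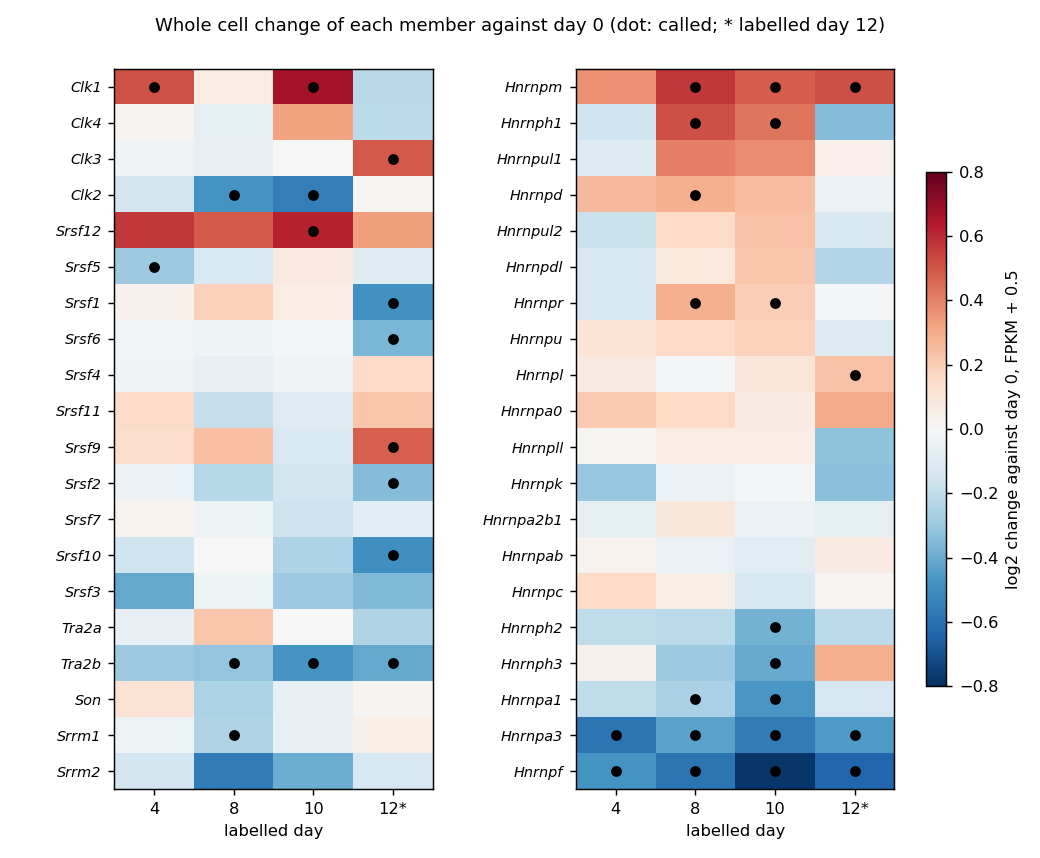
Log2 change of each of the 40 members in whole cells at days 4, 8, 10 and labelled day 12 against day 0, as a colour scale, with a dot where limma called the change. Hnrnpf and Hnrnpa3 are lower in all 4 columns, and Hnrnpm is higher in 3 of them by the test, that of labelled day 12 lost under 6 of 15 alternatives.

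Scaling moved the balance of all genes here too. As deposited, by median of ratios and by quantiles, the share of called genes that were higher was 72.8%, 70.7% and 56.5% at day 4, where the members counted 1 higher with 3 lower, 1 higher with 3 lower and 0 higher with 5 lower. At day 8 the share was 67.7%, 56.3% and 45.9%, and the members counted 4 higher with 6 lower, 2 higher with 11 lower and 5 higher with 9 lower. At day 10 it was 63.4%, 53.3% and 44.4%, with 5 higher with 7 lower, 4 higher with 9 lower and 4 higher with 8 lower. For the libraries labelled day 12 it was 75.4%, 56.2% and 44.9%, with 4 higher with 7 lower, 3 higher with 11 lower and 2 higher with 13 lower. Against day 4 the share was 66.2%, 54.0% and 53.0% at day 8, where the members counted 3 higher with 3 lower, 2 higher with 7 lower and 5 higher with 4 lower. At day 10 against day 4 it was 62.1%, 51.7% and 48.8%, with 4 higher with 4 lower, 3 higher with 7 lower and 5 higher with 4 lower. The Hnrnp median at day 10 was 0.06 as deposited, -0.05 by median of ratios and 0.08 by quantiles, so its sign depended on scaling, beside 0.09, -0.01 and -0.08 over all genes.

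In whole cells Clk1 was higher and Clk2 lower at day 10. Clk1 had 9.07, 7.67 and 6.82 FPKM at day 0, 9.99, 10.1 and 14.3 FPKM at day 4, 8.23, 8.56 and 7.71 FPKM at day 8, 14.7, 11.9 and 11.6 FPKM at day 10 and 6.46, 6.45 and 6.91 FPKM in the libraries labelled day 12. It was highest at days 4 and 10, with a log2 change of 0.51 ± 0.14, adjusted p = 0.049 at day 4 and 0.67 ± 0.14, adjusted p = 0.0019 at day 10. The day 4 call was lost under 11 of 16 alternatives, among them leaving out day 0 replicate 2 or 3 or day 4 replicate 3 (adjusted p = 0.144, 0.204 and 0.0781). Clk2 had 14.5, 11.9 and 13.0 FPKM at day 0, 11.8, 12.7 and 11.0 FPKM at day 4, 9.64, 9.42 and 8.80 FPKM at day 8, 10.46, 7.58 and 8.53 FPKM at day 10 and 13.3, 12.4 and 13.8 FPKM in the libraries labelled day 12. Lower values of Clk2 stood at days 8 and 10, with -0.48 ± 0.11, adjusted p = 0.00573 and -0.55 ± 0.11, adjusted p = 0.00136, and at day 10 against day 4 the change was -0.41 ± 0.11, adjusted p = 0.0121, lost without day 10 replicate 2 (adjusted p = 0.0609) and with only the groups compared (adjusted p = 0.106). Clk3 had 6.62, 5.83 and 6.55 FPKM at day 0, 7.25, 6.19 and 5.31 FPKM at day 4, 6.10, 5.70 and 6.26 FPKM at day 8, 7.28, 5.63 and 6.25 FPKM at day 10 and 9.07, 9.07 and 9.11 FPKM in the libraries labelled day 12, and was called in the libraries labelled day 12 alone, at 0.49 ± 0.11, adjusted p = 0.012, a call lost without day 0 replicate 2 (adjusted p = 0.0648). Clk4 had 4.94, 4.41 and 3.58 FPKM at day 0, 4.58, 5.27 and 3.38 FPKM at day 4, 4.49, 4.21 and 3.49 FPKM at day 8, 5.69, 5.17 and 5.53 FPKM at day 10 and 3.31, 3.88 and 3.75 FPKM in the libraries labelled day 12. All day 10 libraries of Clk4 lay above those of day 0, but the change of 0.32 ± 0.15, adjusted p = 0.104, was not called.

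Among SR and Tra2 genes, Srsf12 and Tra2b were called at day 10. Srsf12 had 0.462, 0.602 and 0.487 FPKM at day 0, 1.16, 0.963 and 0.894 FPKM at day 4, 0.928, 1.07 and 0.794 FPKM at day 8, 1.16, 0.699 and 1.39 FPKM at day 10 and 0.573, 0.843 and 0.957 FPKM in the libraries labelled day 12. Its day 10 change was 0.62 ± 0.18, adjusted p = 0.0131, a call lost without day 10 replicate 3 (0.47, adjusted p = 0.0645) and with quantile normalization. Tra2b had 59.5, 68.3 and 57.5 FPKM at day 0, 47.9, 47.0 and 56.7 FPKM at day 4, 49.1, 49.8 and 49.4 FPKM at day 8, 48.0, 43.2 and 41.8 FPKM at day 10 and 45.0, 47.0 and 46.8 FPKM in the libraries labelled day 12. It was lower at day 8, at -0.32 ± 0.09, adjusted p = 0.0167, at day 10, at -0.47 ± 0.09, adjusted p = 0.000791, and at labelled day 12, at -0.41 ± 0.09, adjusted p = 0.00848, while against day 4 its day 10 change was -0.18 ± 0.09, adjusted p = 0.12. The day 8 call was lost without day 0 replicate 2 or day 8 replicate 1 (adjusted p 0.0505 to 0.079), and that of labelled day 12 without day 0 replicate 2 (adjusted p = 0.0505). Tra2a had 94.9, 87.1 and 75.6 FPKM at day 0, 87.6, 74.4 and 83.8 FPKM at day 4, 103, 101 and 95.9 FPKM at day 8, 88.1, 85.1 and 82.5 FPKM at day 10 and 75.1, 65.9 and 76.3 FPKM in the libraries labelled day 12, with 0.00 at day 10. Srsf1, Srsf2, Srsf6 and Srsf10 were lower in the libraries labelled day 12, at -0.48, -0.35, -0.36 and -0.49, and Srsf9 higher, at 0.48. The Srsf2 call was lost without day 0 replicate 2 or 3 or labelled day 12 replicate 1 or 3 (adjusted p 0.0549 to 0.0742). At day 10 these 5 had 0.06, -0.15, -0.01, -0.25 and -0.12, and none was called.

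**Figure D4:**
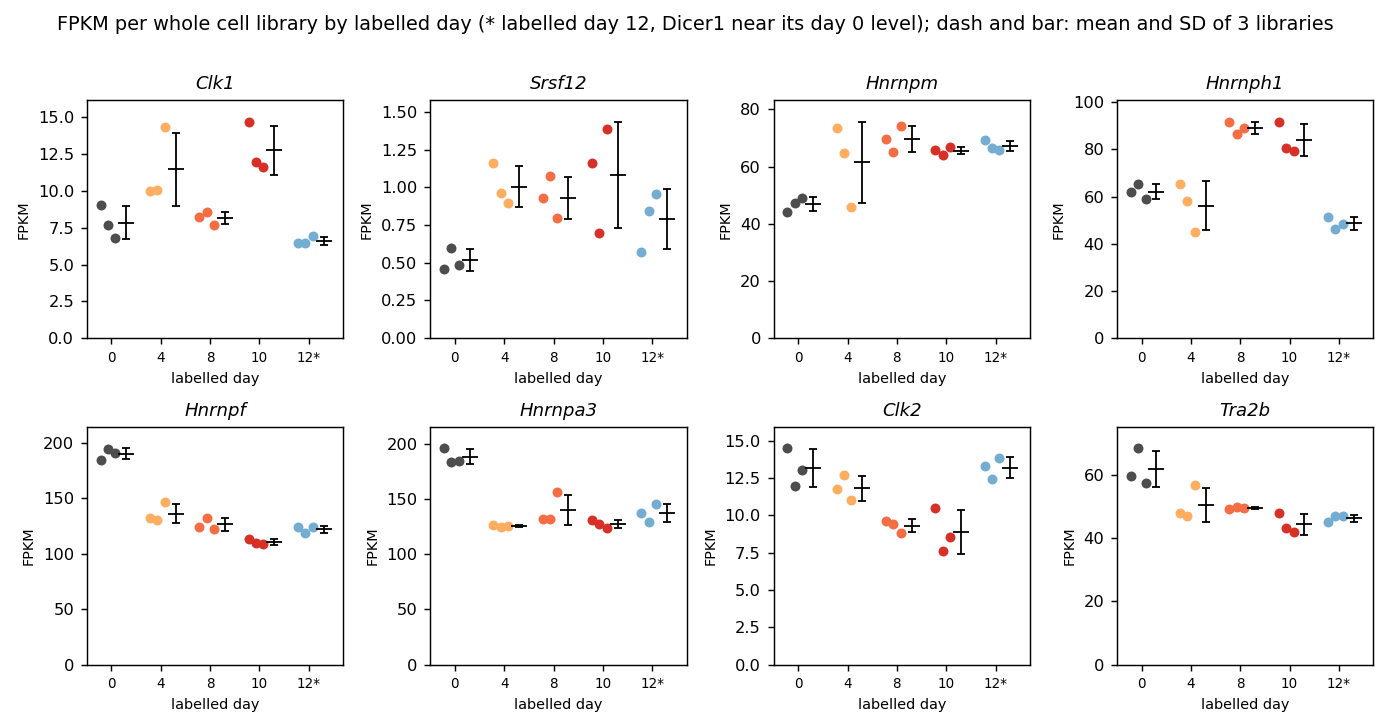
FPKM in each whole cell library by labelled day for 8 members, with the mean and SD of the 3 libraries. Hnrnpf and Hnrnpa3 are highest at day 0, Clk2 is lowest at days 8 and 10, and Hnrnph1 is highest at days 8 and 10.

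The hnRNP genes held the largest called falls. Hnrnpf, of the same subfamily as Hnrnph1, had 185, 195 and 191 FPKM at day 0, 132, 130.1 and 146 FPKM at day 4, 125, 133 and 122 FPKM at day 8, 113, 109 and 109 FPKM at day 10 and 124, 118 and 124 FPKM in the libraries labelled day 12. It was lower on each day, at -0.48 ± 0.06, adjusted p = 0.000333 for day 4, -0.59 ± 0.06, adjusted p = 2.2e-05 for day 8, -0.78 ± 0.06, adjusted p = 9.51e-07 for day 10 and -0.64 ± 0.06, adjusted p = 2.29e-05 for labelled day 12, and also at day 10 against day 4, at -0.30 ± 0.06, adjusted p = 0.00309, the last lost with quantile normalization and with only the groups compared. The day 4 call was also lost with only the groups compared (adjusted p = 0.0753). Hnrnpa3, an A/B type hnRNP, had 196, 184 and 185 FPKM at day 0, 127, 125 and 125 FPKM at day 4, 132, 132 and 156 FPKM at day 8, 131, 127 and 124 FPKM at day 10 and 138, 129 and 145 FPKM in the libraries labelled day 12. Day 0 was again the highest group, with -0.56 ± 0.08, adjusted p = 5.55e-05 at day 10, while day 10 against day 4 gave 0.02 ± 0.08, adjusted p = 0.859. The day 0 libraries are those with high Gapdh, and the part of that contrast in these falls was not tested.

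Hnrnph1, Hnrnpm and Hnrnpr were called higher at day 10. Hnrnph1 had 61.8, 65.5 and 59.0 FPKM at day 0, 65.2, 58.3 and 45.0 FPKM at day 4, 91.6, 86.3 and 89.1 FPKM at day 8, 91.7, 80.8 and 79.3 FPKM at day 10 and 51.4, 46.1 and 48.5 FPKM in the libraries labelled day 12. Days 8 and 10 were higher, at 0.52 ± 0.11, adjusted p = 0.00387 and 0.43 ± 0.11, adjusted p = 0.00776, and against day 4 at 0.68 ± 0.11, adjusted p = 0.0015 and 0.59 ± 0.11, adjusted p = 0.0014. The call at day 8 against day 4 was lost with only the groups compared (adjusted p = 0.0752). Hnrnpm, which binds GU-rich motifs, had 44.3, 47.3 and 49.0 FPKM at day 0, 73.6, 64.9 and 45.99 FPKM at day 4, 69.8, 65.0 and 74.2 FPKM at day 8, 65.7, 64.2 and 66.99 FPKM at day 10 and 69.2, 66.4 and 65.8 FPKM in the libraries labelled day 12. It changed by 0.57 ± 0.13, adjusted p = 0.00514 at day 8 and 0.48 ± 0.13, adjusted p = 0.00879 at day 10, and by 0.12 ± 0.13, adjusted p = 0.495 at day 10 against day 4. Hnrnpr rose at day 10 by 0.20 ± 0.06, adjusted p = 0.0214, a call lost without day 0 replicate 3 (0.16, adjusted p = 0.0846) or day 10 replicate 1 (0.17, adjusted p = 0.0819) and under both scalings. Hnrnpa1, Hnrnph2 and Hnrnph3 fell at day 10, with log2 changes of -0.46, -0.38 and -0.40, the first lost with quantile normalization.

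Speckle genes showed no call at day 10. Son had 23.9, 20.96 and 22.4 FPKM at day 0, 23.6, 28.0 and 21.6 FPKM at day 4, 19.0, 15.6 and 21.9 FPKM at day 8, 20.4, 22.3 and 21.6 FPKM at day 10 and 23.0, 23.4 and 21.7 FPKM in the libraries labelled day 12, with -0.06 ± 0.12, adjusted p = 0.698 at day 10. Srrm1 had 46.1, 44.2 and 46.9 FPKM at day 0, 43.5, 49.1 and 41.3 FPKM at day 4, 38.6, 36.1 and 41.6 FPKM at day 8, 44.2, 42.3 and 44.8 FPKM at day 10 and 48.4, 47.3 and 46.1 FPKM in the libraries labelled day 12, and was lower at day 8, at -0.24 ± 0.08, adjusted p = 0.0324, a call lost under 6 of 16 alternatives, among them day 0 replicate 1 or 3 or day 8 replicate 1 or 2 left out (adjusted p 0.0813 to 0.127). Srrm2 had 67.9, 48.8 and 65.0 FPKM at day 0, 63.9, 87.8 and 28.1 FPKM at day 4, 42.5, 29.4 and 53.2 FPKM at day 8, 43.4, 47.2 and 45.6 FPKM at day 10 and 59.3, 54.1 and 50.8 FPKM in the libraries labelled day 12, with -0.40 ± 0.32, adjusted p = 0.345 at day 10.

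Cell type markers moved in whole cells as well. The summed level of 9 fibroblast markers was 836 to 857 FPKM at day 10 against 128 to 155 FPKM at day 0, with 2 and 3 of them under 0.5 FPKM in every library. Sums of 10 trophoblast markers were 523 to 558 FPKM against 151 to 201 FPKM, those of 11 endoderm markers 74.6 to 80.4 FPKM against 39.3 to 43.7 FPKM, and those of 16 pluripotency markers 2888 to 3113 FPKM against 3005 to 3648 FPKM. For 8 neuroectoderm markers the sums were 73.3 to 75.1 FPKM against 51.9 to 64.6 FPKM, and for 9 mesoderm markers 3.12 to 4.70 FPKM against 2.33 to 2.62 FPKM. Under 0.5 FPKM in every library of days 10 and 0 were 5 and 5 mesoderm and 4 and 3 neuroectoderm markers. The same held for 3 and 4 endoderm and 1 and 3 trophoblast markers. Their part in the changes of the members was not tested. At day 10, ribosomal protein mRNAs were lower for 22 of 35 and higher for 0, core spliceosome genes lower for 16 and higher for 7 of 69, other splicing regulators lower for 9 and higher for 10 of 52, SR-related genes lower for 4 and higher for 7 of 34, and decay genes lower for 0 and higher for 1 of 15. Mbnl1, the muscleblind regulator that opposes pluripotent splicing, had 4.58 ± 0.25 FPKM at day 10, against 1.008 ± 0.0432 FPKM at day 0, a difference of 1.75 ± 0.12 with an adjusted p of 2.58e-07. Mbnl2 had 13.2 ± 0.791 FPKM at day 10, against 4.18 ± 0.141 FPKM at day 0, a difference of 1.54 ± 0.14 with an adjusted p of 2.03e-06. Rnps1, a peripheral exon junction protein, had 66.4 ± 5.85 FPKM at day 10, against 140.1 ± 11.3 FPKM at day 0, a difference of -1.07 ± 0.11 with an adjusted p of 5.77e-06. Each of the 3 exceeded the change of any member in size.

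The position of whole cell values against the fractions shows how far their scales can be set side by side. At day 12, 8 of 40 members (20%) had all whole cell libraries above all fraction libraries and 9 (22.5%) had them below, beside 23.3% and 25.2% of all genes of at least 0.5 FPKM. At day 0 the counts were 2 (5%) and 6 (15%), beside 8.68% and 18.6%. Clk1 was below on both days, and Hnrnpf and Tra2b were above at day 0. Whole cell levels and fraction levels were therefore tested within their own kind alone, and their changes at day 12 are set side by side below without a test. The whole cell libraries labelled day 12 also had 13.4 to 16.7 FPKM of Dicer1, against 2.73 to 5.46 FPKM in the day 12 fractions.

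Because Dicer makes microRNAs, the seed shared by the embryonic stem cell microRNAs was searched in the members. These 5 mature sequences, from RefSeq on GRCm38.p6, carry it at bases 2 to 8, in capitals.
mmu-miR-291a-3p: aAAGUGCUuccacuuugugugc
mmu-miR-294-3p: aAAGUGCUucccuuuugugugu
mmu-miR-295-3p: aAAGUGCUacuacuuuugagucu
mmu-miR-302b-3p: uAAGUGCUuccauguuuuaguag
mmu-miR-302d-3p: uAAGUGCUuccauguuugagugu
The matching DNA letters AGCACTT, on the transcribed strand alone, were found in the longest annotated 3′ UTR of 10 of the 40 members, beside 16.9% of 13278 protein-coding genes. Median 3′ UTR length was 1075 bases over the members and 1108 bases over those genes. Windows of 30 bases around the first match are shown for members called at day 10, with the match in capitals.
Hnrnpr: aaatagtttagtAGCACTTactcctgtgca
Srsf12: tttttattctaaAGCACTTttcacataaaa
Tra2b: taaggggcttttAGCACTTtgttgttactt
Hnrnph3: taaaaccctcatAGCACTTgactaagatac
Hnrnpr had 3 matches in a 3′ UTR of 19419 bases, and the other three had 1 each. Of these, Hnrnpr and Srsf12 were higher at day 10 and Tra2b and Hnrnph3 lower. Among the 10 members with a match 2 were higher and 2 lower at day 10, with a median log2 change of 0.01, and among the 30 without one 3 were higher and 5 lower, with a median of -0.02. At day 8 the medians were 0.12 and -0.04. A match is a description of letters and not a measured site.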

How the data were processed

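Polyadenylated RNA of whole cells, nuclei and cytoplasm was sequenced in 27 libraries, 3 per group. The authors deposited 1 FPKM value per gene and library. Per the submitters' processing notes, TopHat2 2.0.9, Cufflinks 1.3.0 and the mm9 build were used, in roles not given in the sources used here. Read counts per library were not used here, so relative depth was estimated from steps between FPKM values under 0.1. From the deposited FPKM values, log2(FPKM + 0.5) was fitted with limma 3.58.1 in R 4.3.3, with a trended prior and Benjamini-Hochberg adjustment at 0.05 over all genes with a group mean of at least 0.5 FPKM. Fractions and whole cells were fitted apart, since their normalizations need not match, and the fits were tested on simulated data.

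Sample groups follow the labels. GENCODE M21 on GRCm38 gave gene names, transcript models and 3′ UTRs, and RefSeq gave microRNAs, and no coordinates of mm9 were used. The members and gene lists were chosen with earlier results of these data known. Values in every library are given for Clk, Tra2, Son and Srrm genes, for Srsf and Hnrnp genes with the highest and lowest ratios at day 0, for called ratio changes and for the largest called changes at day 10. Alternatives were the pseudocounts 0.1 and 1, other filters, median-of-ratios scaling, quantile normalization, a replicate block, leaving out 1 library at a time, and fits limited to the groups compared. Added after the data were seen were fits without 2 nuclear libraries and comparisons with whole cell day 4. Tables and figures used Python 3.11.15, numpy 2.4.6, pandas 2.3.3 and matplotlib 3.10.9.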

Additional observations from a re-analysis of the deposited data

Results flagged for a closer look

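For 3 members the effect of compartment differed between the days by a test of the difference in limma with Benjamini-Hochberg adjustment. The log2 ratio of nucleus to cytoplasm, day 12 minus day 0, was -1.38 for Srsf1, -1.35 for Hnrnpdl and -0.89 for Srsf5.

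For some members, Srsf1 and Srsf5 again among them, every day 12 library of a fraction lay on one side of day 0 while every whole cell library labelled day 12 lay on the opposite side. These differences were not tested, and those whole cell libraries had Dicer1 at the level of day 0. Clk3 changed by -0.59 in nuclei and -0.53 in cytoplasm, with 0.49 in whole cells. Hnrnph3 changed by -0.63 in nuclei and -0.55 in cytoplasm, with 0.29 in whole cells. Srsf6 changed by 0.18 in nuclei and 0.38 in cytoplasm, with -0.36 in whole cells. In cytoplasm, Hnrnph1 changed by 0.66, Srsf1 by 0.51, Hnrnpd by 0.40 and Srsf5 by 0.37, with whole cell values of -0.35, -0.48, -0.05 and -0.10 in that order. Srsf9 changed by -0.36, Hnrnpl by -0.28, Hnrnpa0 by -0.27 and Srsf4 by -0.23 in cytoplasm, with whole cell values of 0.48, 0.24, 0.29 and 0.15.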

How the results depend on the processing

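Of 138 called member results, 77 were never lost or reversed under the alternatives run. Hnrnpa1 at day 10 against day 4 reversed with quantile normalization, at 0.0616 on the log2 scale with an adjusted p of 0.774 in limma. For nuclei at day 12 against day 0, the 15 members called became 8 with quantile normalization, 4 with only the groups compared and 26 without the 2 nuclear libraries. Over all genes, the 6281 called became 6155, 2112 and 9613 in the same order. For cytoplasm the 9 became 5 with quantile normalization and 25 with only the groups compared, and for the change of the ratio the 3 became 20 without the 2 nuclear libraries. Calls over all genes went from 5574 to 5151 and 9841 in cytoplasm, and from 227 to 6580 for the ratio. With only the groups compared, whole cell counts against day 0 were 1 at day 4, 16 at day 8 and 19 at day 10, in place of 4, 10 and 12, and against day 4 they were 0 at day 8, with 6 members at an unadjusted p under 0.05 in limma, and 3 at day 10, in place of 6 and 8. All genes called against day 0 were then 438, 6606 and 8893, in place of 1071, 4769 and 6987. Against day 4 they were 351 and 2735, in place of 3181 and 5988. No share of all genes at the unadjusted threshold is given to set beside the 6 members. Day 8 against day 4 gave 2 with no filter and 2 without the libraries labelled day 12, where 2890 and 2624 of all genes were called in place of 3181. The F-test gave 15 members in place of 24 without those libraries, with no share of all genes to set beside the 15. The cause was not tested.

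Leaving out 1 library gave 23 to 26 members for nucleus against cytoplasm at day 12, 28 to 33 at day 0, 1 to 8 for the change of the ratio, 10 to 16 for nuclei and 3 to 5 for cytoplasm. In whole cells it gave 2 to 6 at day 4, 8 to 11 at day 8, 11 to 13 at day 10 and 6 to 11 for labelled day 12, with 2 to 8 at day 8 and 7 to 14 at day 10 against day 4, and 20 to 35 for the F-test. The ratio count was 1 without cytoplasm day 12 replicate 1 and 8 without nucleus day 0 replicate 3. Calls over all genes are not given for single libraries left out, so these counts cannot be set against a share of all genes.

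Deviations from the group means of samples with the same replicate number had a median correlation of -0.007 over 18 fraction pairs and -0.003 over 30 whole cell pairs. The fraction pairs ran from -0.358 to 0.267, with 5 over 0.1, beside 6 of 36 pairs of unlike number. The whole cell pairs had 2 over 0.1, beside 9 of 60. The numbers were not taken as pairing, which these values do not exclude. With a replicate block the counts were 26 for nucleus against cytoplasm at day 12, 33 at day 0, 2 for the change of the ratio, 14 for nuclei, 9 for cytoplasm, 3, 9, 13 and 11 for the 4 whole cell days, 22 for the F-test, and 4 at day 8 and 8 at day 10 against day 4. Over all genes the block gave 5523, 6832, 53, 5825 and 5264 calls for the fraction comparisons in that order, in place of 5837, 7152, 227, 6281 and 5574. For the 4 whole cell days against day 0 it gave 932, 4412, 6699 and 1917, in place of 1071, 4769, 6987 and 2170. Against day 4 it gave 2824 at day 8 and 5628 at day 10, in place of 3181 and 5988. For the F-test with the block no count over all genes is given. FPKM holds no counts, so intervals for single values could not be given.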
